A study of Mus musculus with 12 samples.

Results

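The 7 genes Dppa2, Dppa4, Dppa3, Dppa5a, Utf1, Lin28a and Tdh, all markers of stem cells or the germline, were examined for binding of the transcription factor SOX2 in mouse embryonic stem cells. They were listed by name, not by their values, though with earlier results of these data known. They are 7 of 21887 protein-coding genes of the RefSeq annotation of GRCm38.p6 (mm10). A region counted for a gene when its midpoint lay within 50 kb of the gene's span. By this rule 10 of 10351 SOX2 regions of asynchronous cells belonged to the genes, and 0 of 84 regions of mitotic cells did.

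All groups were E14 cells, an embryonic stem cell line, grown on gelatin with 10% serum, leukemia inhibitory factor, CHIR99021 (a GSK3 inhibitor, 3 μM) and PD184352 (a MEK inhibitor, 0.8 μM). Asynchronous cells had no further treatment named in the labels. Mitotic cells were held overnight in nocodazole, which blocks the spindle, and after fixation were sorted for the mitotic mark H3S10p. Each condition had 3 replicates of SOX2 ChIP and 3 of input DNA, 12 libraries in all. The 2 deposited lists hold 1 set of regions per condition from pooled replicates, so no count or width below has a replicate error and no order of genes has a test. Depth per library is unknown, and binding sites say nothing of how much of each gene the cells expressed.

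SOX2 is an HMG-box protein that binds DNA in the minor groove, in embryonic stem cells often next to OCT4 on paired motifs. The 7 genes are known markers of the state it maintains, but they act in different ways. DPPA2 and DPPA4 are SAP-domain chromatin proteins, DPPA3 (Stella) guards the DNA methylation state of oocytes and primordial germ cells, and DPPA5A and LIN28A bind RNA. UTF1 is a chromatin-associated cofactor, and TDH is the mitochondrial threonine dehydrogenase on which mouse embryonic stem cells depend for one-carbon units.

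In asynchronous cells, 5 of the 7 genes had a SOX2 region within 50 kb, where 45.5% of all protein-coding genes did. Dppa5a had 4 regions, Utf1 and Lin28a had 2 each, and Dppa3 and Tdh had 1 each. Dppa2 and Dppa4 had 0. At least 2 regions were found at 18.4% of protein-coding genes and at least 4 at 3.08%. The genes are short, from 1.15 kb (Dppa5a) to 16.7 kb (Tdh). Among the 10776 protein-coding genes no longer than Tdh, 36.2% had a region within 50 kb.

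**Figure D1:**
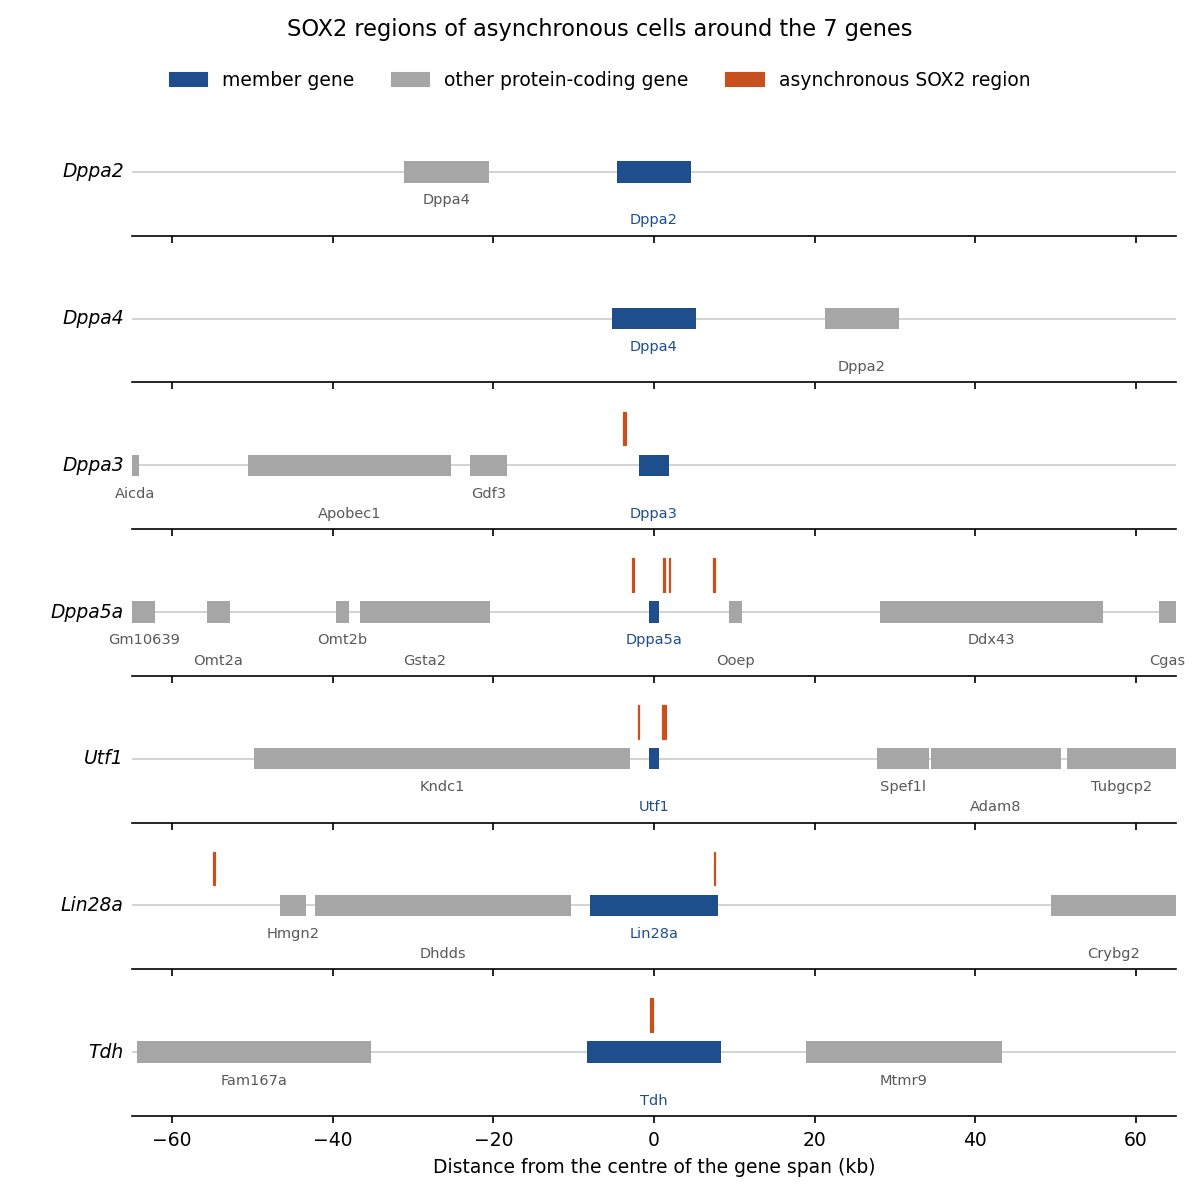
Each row shows 1 of the 7 genes (blue) with the other protein-coding genes around it (grey) and the asynchronous SOX2 regions (orange), against distance from the centre of the gene span in kb, lower coordinates to the left. Regions sit beside or inside Dppa3, Dppa5a, Utf1, Lin28a and Tdh, and none is drawn around Dppa2 or Dppa4.

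Where a region was present, it was close. All 5 genes with a region had one with its midpoint inside the gene or within 2.5 kb of it, a limit chosen after the distances were seen. Such a region was found at 18.1% of all protein-coding genes and at 7.50% of those no longer than Tdh. Of the 9957 protein-coding genes of any length with a region within 50 kb, 39.7% had one within 2.5 kb. The share was lower among genes no longer than Tdh, where 3899 had a region within 50 kb and 808 within 2.5 kb. Within 10 kb the count was again 5 of 7, against 23.8% of protein-coding genes. Of the 10 regions, 8 lay within 2.5 kb of their gene and 2 had their midpoint inside it, in Lin28a and Tdh. The share of all asynchronous regions this close to a gene was not computed, and the shares given here are over genes. A midpoint inside the gene occurred at 14.7% of protein-coding genes. The median distance to the nearest region was 0.638 kb over the 7 genes and 62.0 kb over all protein-coding genes.

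Dppa4 (chromosome 16, 48283735 to 48294292) and Dppa2 (chromosome 16, 48310274 to 48319513) are neighbours 16.0 kb apart, and their proteins work as a pair that activates genes of early cleavage embryos. Neither had a region within 50 kb or within 100 kb. The nearest, 410 bp wide at chromosome 16, 48422460 to 48422869, lay 103 kb from Dppa2 and 128 kb from Dppa4, and was nearest to Morc1, a germline silencing factor, at 8.57 kb. Such distances are common: 63.2% of protein-coding genes lay as near to a region as Dppa2 or nearer, and 69.2% as Dppa4 or nearer. On the lower side the next region, at 46592880 to 46593256, was 1691 kb from Dppa4. The pair thus lay in an interval of 1830 kb between neighbouring region midpoints, where the median interval was 114 kb and 1.41% of 10330 intervals were at least as long. Counted by genes, 8.28% of those between neighbouring regions lay in an interval of this length or longer. Of protein-coding genes, 3 touch the interval: Dppa4, Dppa2 and the predicted gene Gm52257. Because the genes share the interval, they are 1 observation rather than 2. The deposited peak names skip 1 number between the regions at its ends, so the absence refers to the peaks listed.

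Dppa3 (chromosome 6, 122626424 to 122630271) had 1 region, at 122624468 to 122624920. At 453 bp it was the widest of the 10 and wider than or as wide as 86.4% of the asynchronous list. Its midpoint lay 1.73 kb outside the gene on the side of Gdf3, a TGF-beta family ligand of pluripotent cells, whose gene was 14.6 kb from it. It was the only region within 50 kb of Gdf3 as well. On the other side, Nanog starts 77.2 kb from Dppa3. The nearest region there, 585 bp wide at 122702560 to 122703144, was 72.6 kb from Dppa3 and 4.64 kb from Nanog, and so fell outside the limit. With a limit of 100 kb, Dppa3 had 3 regions. The peak names skip 2 numbers between the regions on either side of the one at Dppa3.

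Dppa5a (chromosome 9, 78367052 to 78368199) had the most regions, 4, although it is the shortest of the genes. A region of 234 bp lay 2.04 kb below it, at 78364894 to 78365127. On the higher side were regions of 202 bp (78368737 to 78368938), 186 bp (78369474 to 78369659) and 275 bp (78374959 to 78375233), at 0.638, 1.37 and 6.90 kb from the gene. The last was nearer to Ooep, a KH-domain oocyte protein of the same family, at 1.81 kb. The 4 regions spanned 10.3 kb. In the whole asynchronous list, 10 runs of 4 neighbouring regions were as compact or more so, and they held 40 regions, 0.386% of the list. All 4 were narrow, below the list's median width of 289 bp, at width percentiles 6.20 to 45.2. Together they covered 897 bp, 8.68% of the cluster. No peak number is skipped between the regions that flank the cluster.

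**Figure D2:**
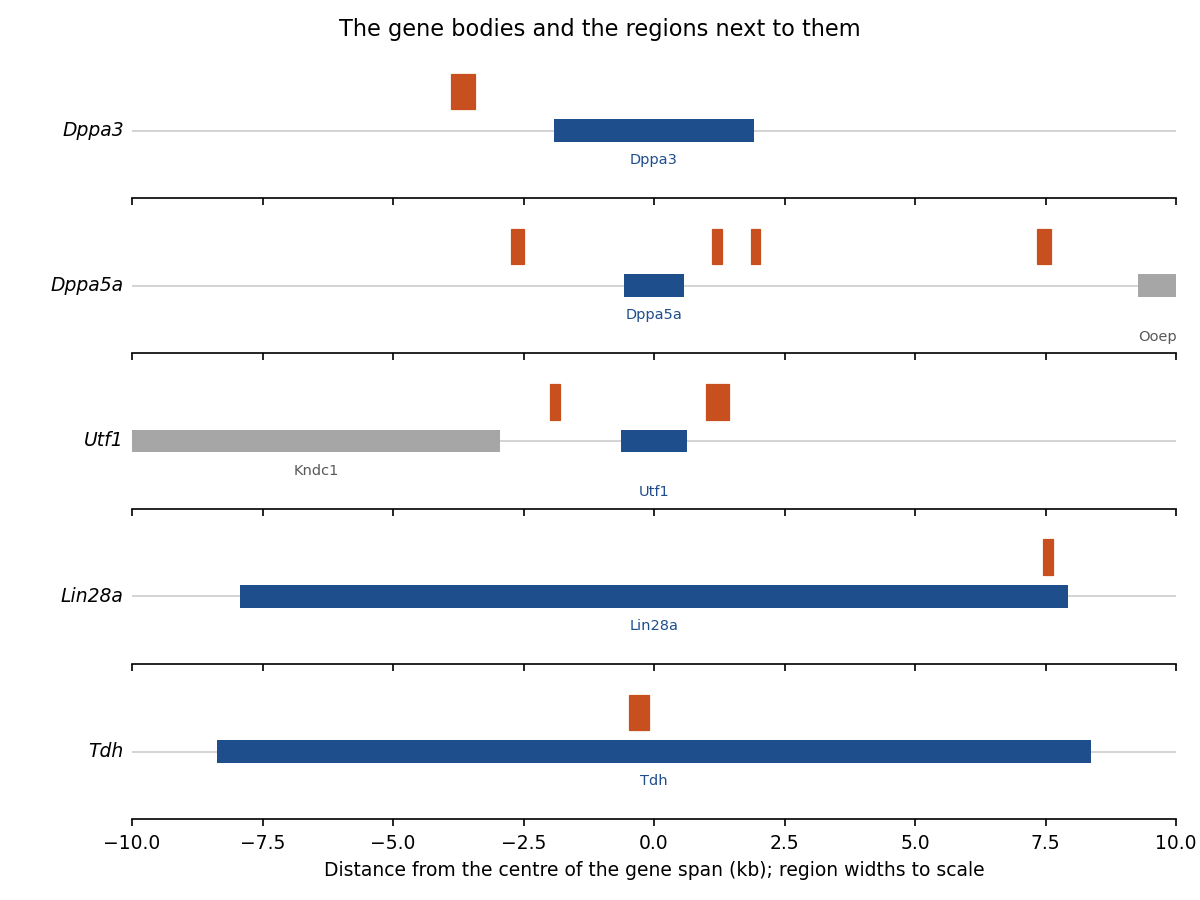
Each row shows a gene with regions (blue) within 10 kb on either side of the centre of its span, with region widths (orange) to scale and neighbouring genes in grey. The 4 regions at Dppa5a lie on both sides of the gene, the 2 at Utf1 flank it, that of Lin28a sits at the higher-coordinate end, and that of Tdh in the middle of the gene.

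Utf1 (chromosome 7, 139943856 to 139945112, plus strand) was flanked by 2 regions whose midpoints were 3.12 kb apart. UTF1 is a classical SOX2 and OCT4 target whose known enhancer lies downstream of the coding sequence. The wider region, 439 bp at 139945479 to 139945917 (width percentile 84.6), lay 0.586 kb beyond the gene's downstream end. The other, 183 bp at 139942492 to 139942674, lay 1.27 kb upstream of the start and 1.04 kb from the end of Kndc1, the nearer gene. It had the smallest width in the list, shared by 460 regions (4.44%). No region overlapped the promoter window of Utf1. Between the regions on either side of this pair, 3 peak numbers are skipped.

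Lin28a (chromosome 4, 134003330 to 134019196, minus strand) encodes the RNA-binding protein that blocks maturation of the let-7 microRNAs. Its region of 200 bp at 134018717 to 134018916 was centred on the start used in the RefSeq promoter table. The region's midpoint lay 0.5 bp from that start. It lay 0.380 kb inside the gene's end, because the gene's span extends beyond the start of that table. Of 32851 promoter windows in that table, 6 (0.0183%) had a region midpoint as near to their start. Lin28a is among the 6, and its own distance set this limit, so the share is a description only. A region overlapped 1.56% of windows at all. The second region, 215 bp at 133956400 to 133956614, lay 46.8 kb from the gene, beyond Dhdds and Hmgn2. Its nearest gene was Hmgn2, a nucleosome-binding protein, at 8.23 kb, and it was outside the limit when distance was taken from the start. Both regions were narrow, at width percentiles 13.0 and 20.0. The peak names skip 2 numbers between the regions on either side.

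RefSeq promoter windows, 250 bases before to 50 bases after a start on GRCm38.p6, were at hand for Lin28a and Utf1. The 250 bases before each start are shown 5′ to 3′ on the gene's strand, because a region covers the one and not the other. For Lin28a they run from chromosome 4, 134019066 down to 134018817, and for Utf1 from chromosome 7, 139943606 to 139943855. The motifs searched, on both strands, were the SOX core CATTGT and the octamer ATGCAAAT, and capitals mark a match.
Lin28a: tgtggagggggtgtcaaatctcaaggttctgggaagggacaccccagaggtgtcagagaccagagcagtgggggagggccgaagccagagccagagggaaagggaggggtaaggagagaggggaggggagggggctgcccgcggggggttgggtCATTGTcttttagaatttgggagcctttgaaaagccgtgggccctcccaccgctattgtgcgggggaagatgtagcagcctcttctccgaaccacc
Utf1: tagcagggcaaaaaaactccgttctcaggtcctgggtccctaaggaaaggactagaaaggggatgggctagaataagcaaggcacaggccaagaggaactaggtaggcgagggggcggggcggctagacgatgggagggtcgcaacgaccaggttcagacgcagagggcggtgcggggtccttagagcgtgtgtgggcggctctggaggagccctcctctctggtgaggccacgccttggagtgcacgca
In the Lin28a window the region begins at base 151 and takes in 150 of the 300 bases. The single CATTGT match lies at bases 155 to 160 (134018907 to 134018912), 96 to 91 bases before the start. It is inside the region, near the edge farther from the start. The shorter form ATTGT was not searched. No octamer was found in the Lin28a window, and neither motif was found in the Utf1 window. The SOX core occurred in 12.6% of all promoter windows and in 26.8% of the 512 windows that a region overlaps. The octamer occurred in 1.74% and 4.88%. The 2 motifs side by side with 0 or 1 base between them occurred in 0 of the 32851 windows. These matches are descriptions of the letters. The base content of the 250 bases was similar, with G and C making up 61.2% for Lin28a and 61.6% for Utf1.

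Tdh (chromosome 14, 63492347 to 63509092) had 1 region, 388 bp wide at 63500236 to 63500623 (width percentile 76.5). It lay near the middle of the gene, 8.08 kb from one end and 8.66 kb from the other. It also overlapped the long non-coding RNA Gm17232. Exons and introns were not distinguished. The next regions were 279 kb from the gene on the lower side, inside Gata4, an endoderm and heart transcription factor, and 899 kb from it on the higher side. No peak number is skipped between it and these regions.

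The gene with the most regions did not have the widest. The 10 regions had a median width of 224 bp and ranged from 183 to 453 bp. Only 3 were wider than the list's median of 289 bp, 1 each at Dppa3, Utf1 and Tdh. With regions wider than the median alone, 3 of the 7 genes had one, and Dppa5a and Lin28a had 0. The share of all protein-coding genes under this filter was not computed, so that count is a description only. The bases covered were 897 at Dppa5a, 622 at Utf1, 453 at Dppa3, 415 at Lin28a and 388 at Tdh. Each of the 10 was a single entry of the list, as were all but 1.65% of regions. Width depends on depth and on the caller and is not a measure of occupancy.

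**Figure D3:**
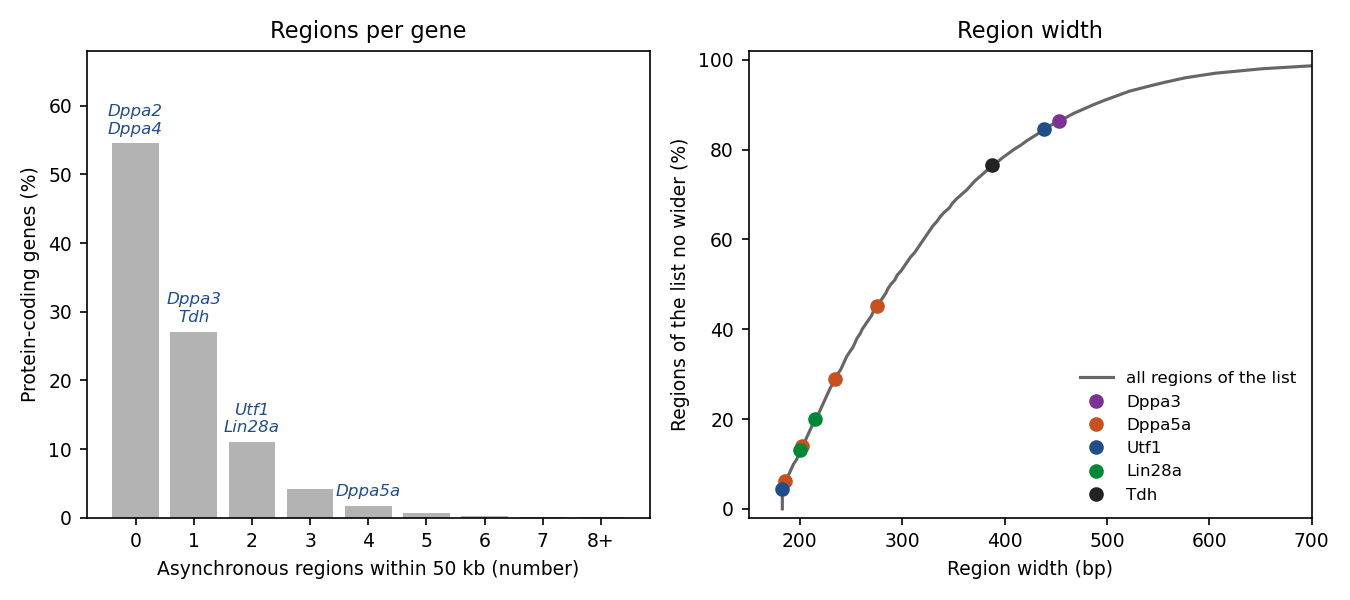
Left, the share of 21887 protein-coding genes (%) by number of asynchronous regions within 50 kb, with the 7 genes named above their class. Right, width in bp of each of the 10 regions (points, coloured by gene) on the curve of the whole list (% of regions no wider): those of Dppa5a and Lin28a fall below 289 bp, the list's median.

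None of the 7 genes had a mitotic region within 50 kb, where 0.836% of protein-coding genes did. Of the 84 mitotic regions 0 were near a gene of the set; taking 3 counts as the most that a count of 0 allows, the share could be up to 3.57%, for counting error only. At the background rate so few genes are reached that an absence at 7 genes was not detectable. The nearest mitotic region lay 1.50 Mb from Dppa3, 3.36 Mb from Lin28a, 3.77 Mb from Utf1 and 8.37 Mb from Dppa5a. It lay 13.4 Mb from both Dppa2 and Dppa4, and 49.2 Mb from Tdh, whose chromosome held 1 mitotic region. The median was 8.37 Mb, against 9.35 Mb over the 19960 protein-coding genes on chromosomes with a mitotic region. Mitotic regions overlapped 0.0122% of promoter windows, and neither the Lin28a nor the Utf1 window was among them.

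**Figure D4:**
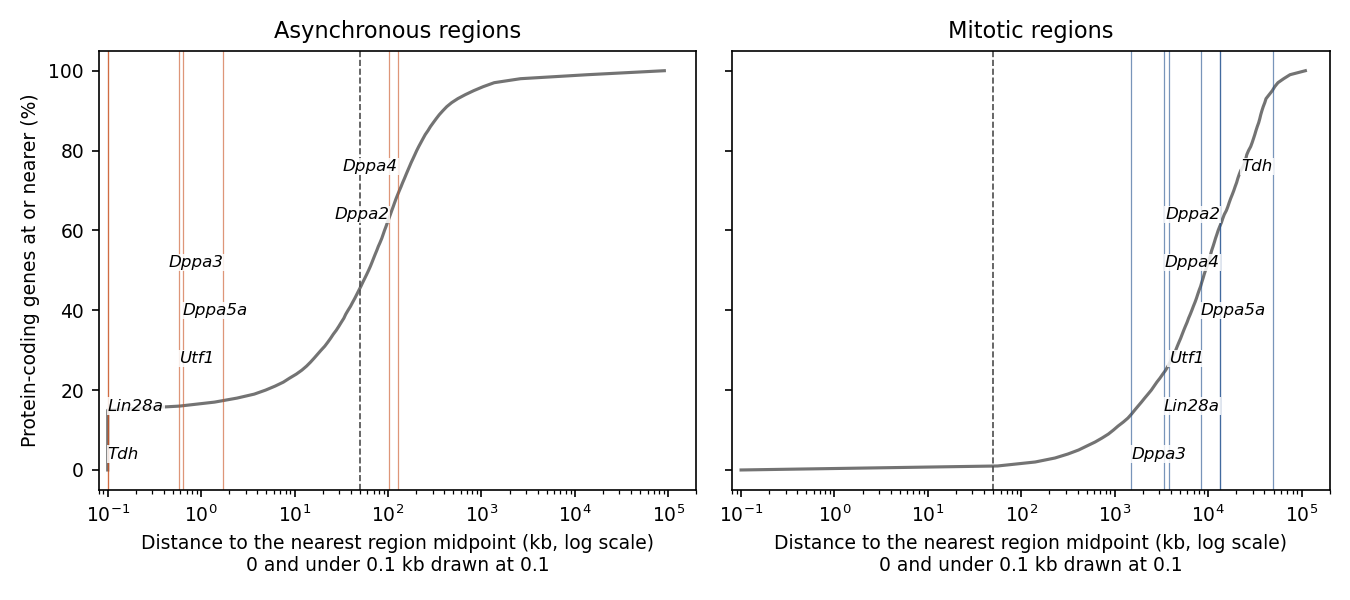
Cumulative share of protein-coding genes (%) by distance to the nearest region midpoint (kb, log scale, values under 0.1 drawn at 0.1) for asynchronous regions (left) and mitotic regions (right), with vertical lines at the 7 genes and a dashed line at 50 kb. For asynchronous regions, 5 of the lines lie below 2.5 kb, and for mitotic ones all lie beyond 1000 kb.

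Genes that act with these markers, and other stem cell and germ cell markers, were counted in 7 lists. Of 72 such genes, 43 had an asynchronous region within 50 kb, against the 45.5% of all protein-coding genes. By gene length, the share was 36.2% for genes no longer than Tdh and 54.5% for longer ones, of which 25.3% had a midpoint inside. All 8 DNA methylation genes, each longer than Tdh, had a region: Uhrf1, which DPPA3 keeps from chromatin, Tet1, Tet2, Tet3 and Dnmt3b had 2 each, and Dnmt1, Dnmt3a and Dnmt3l had 1 each. In Tet1, Tet2, Tet3 and Dnmt3a a region lay inside the gene. Of the 9 listed targets of DPPA2 and DPPA4, none longer than Tdh, 2 had a region, Tcstv3 and Usp17lc with 1 each. Duxf3, which encodes the DUX activator of cleavage-stage genes, had 0, as did Zscan4c, Zscan4d and Zscan4f. These families are multicopy, so that reads may not have been placed uniquely there, and this was not tested.

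The counts of the other lists are read beside the same shares of all protein-coding genes, 45.5% with a region, 18.4% with at least 2 and 3.08% with at least 4. Of 13 other embryonic stem cell markers, 9 had a region (69.2%), among them Gdf3, whose only region is that of Dppa3. Slc2a3, the glucose transporter beyond Nanog on the Dppa3 chromosome, had 6, Mkrn1 had 4, and Trim71, Alpl and Pecam1 had 2 each. Dppa1 had 0, with its nearest region 85.5 kb away. Among 14 germ cell markers, 9 had a region (64.3%): Tfap2c had 5, Prdm1 and Prdm14, which with it specify primordial germ cells, had 3 each, and Kit, Nanos3 and Piwil2 had 2 each. Dazl, Mael and Tex101 had 1 each, and Ddx4, Nanos2, Sycp3, Stk31 and Sohlh2 had 0. Kit alone of the 72 also had a mitotic region inside the limit.

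Of 10 genes of the let-7 pathway, all longer than Tdh, 6 had a region (60.0%), near the 54.5% of longer genes. The let-7 target Hmga2 had 4, the nuclease gene Drosha had 3, and the paralog Lin28b had 1, inside the gene, as did Igf2bp1. Dicer1 and Dgcr8 also had 1 each, while the uridylyltransferases Tut4 and Tut7, which LIN28A recruits to let-7 precursors, had 0. Of 10 genes of threonine and one-carbon metabolism, 6 had a region (60.0%, of all genes 45.5%), with 2 each at Gcsh and Shmt1. Gcat, the enzyme after TDH in threonine breakdown, had 0, at 115 kb from the nearest, and Gldc had 0 at 69.3 kb. Of the 8 oocyte genes related to DPPA5A or acting with its relatives, 3 had a region (37.5%): Ooep, whose 4 are those of Dppa5a, and Nlrp5 and Padi6 with 1 each. The relatives Khdc3, Khdc1a, Khdc1b and Khdc1c, at 229 to 344 kb from a region, had 0.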

How the data were processed

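SOX2 ChIP and input DNA were sequenced from asynchronous and mitotic E14 cells, 3 libraries for each. Bowtie2 2.2.1, MACS2 and mm10 are named in the submitters' processing notes; the version of MACS2 is not given in the sources used here. Peaks were called on 3 pooled replicates against input, per the deposited file names, blacklisted regions were removed, and the q-value tags, read as 0.01 (asynchronous) and 0.05 (mitotic), differ. The deposited values are start and end positions (bp; unit other), without a score, p or read count column. Peak numbers reach 15590 and 131, and 5239 and 47 of the numbers are skipped.

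Starts were converted to count from 1, and 181 repeated asynchronous coordinates were merged. Regions were matched to RefSeq gene spans of GRCm38.p6 on 21 chromosomes with Python 3.11.15, numpy and pandas. The span table has no strand or exons; strand and start came from the RefSeq promoter table, which matched 2 of the 7 genes. Genes, lists and rules were chosen with earlier results of these data known. No test was run, since each condition has 1 list. Counting was checked on simulated positions. Named are the 7 genes, their neighbours, the nearest genes of their regions and, per list, the genes with the most regions or a mitotic one. Genes named in the lists with 0 regions or with 1, and Morc1, Nanog, Gata4 and Gm52257, were picked once values were known. Protein sequences and the sequence under regions outside promoter windows were not used here.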

Additional observations from a re-analysis of the deposited data

How the results depend on the processing

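Of 83 values recomputed for 10 results under 10 settings, 72 stayed within 1.5 times of the reported count. Part of these could not have moved, so their share is not a measure of stability. A count of 0 stays 0 under any stricter setting, and unmerged entries change nothing where each region is a single entry. With only regions wider than the list's median, the genes with an asynchronous region fell from 5 to 3 and the regions from 10 to 3. A shorter list can only lower these counts, and 7 of the 10 regions were narrower than the median. The share of all protein-coding genes under this filter was not computed. At limits of 2.5, 10 and 100 kb the genes with a region were 5. They were also 5 with region edges, gene ends or unmerged entries, and by nearest gene. Across these settings the regions were 7 to 12. Of all protein-coding genes, 62% lay within 98.6 kb of a region, so 5 of 7 at 100 kb was near that share. Shares for region edges, gene ends and nearest gene were not computed. The other 9 values that moved are counts at Lin28a (5), Utf1 (2), Dppa3 (1) and Dppa5a (1). No gene had a mitotic region under any setting, up to 1000 kb. The nearest one lay 1.50 Mb from Dppa3, so no limit used could have reached it. The limits of 2.5 and 1000 kb and the annotated starts were chosen after seeing the data. Leaving out replicates could not be done on pooled lists. No paired analysis was possible because the lists pool the replicates. Depth is unknown and limits what an absence shows.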
